A study of Mus musculus with 6 samples.

Results

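The genes described here are 4 globin genes and 4 genes that control or serve red cell formation: Hba-a1, Hbb-b1, Hba-x, Hbb-bh1, Klf1, Gata1, Alas2 and Epor. They were taken by gene name from the array annotation, with every probe that carried the name, which gave 13 probes for 8 of the 27962 gene names on the array. Hbb-b1 had 4 probes, Hba-a1 and Hbb-bh1 had 2 each, and the others had 1, and the array as a whole held 41174 probes. The 6 arrays, each with a single dye, held RNA of mouse autopod, the distal part of the limb, cut by laser from sections of C57BL/6 embryos at E14.5. The tissues were the interzone, the strip of cells where a joint will form, the growth plate chondrocytes next to it, and the tissue between the digits. Each was sampled in wild type controls and in Tgfbr2Prx1KO littermates, with 1 array per tissue and genotype. By its name the mutant lacks the TGF-beta type II receptor in cells where the Prx1 promoter drives the recombinase, which by convention is limb mesenchyme and not blood. Per the labels, 2 embryos of each genotype were used, and no source used here says how they were pooled on the arrays. The titles write the mutant as Tgfbr2Prx1KO for interzone and growth plate and as Tbr2Prx1KO for interdigital tissue. The latter is taken here as the same mutant, which the titles leave unsettled. The labels also go against each other on the tissue. The description field of 5 of the 6 samples speaks of irradiated human blood, whereas their title, organism and source give mouse limb. Groups here follow the titles, and since the genes described are those of blood cells, that disagreement stands beside every value below. The 12 cartilage markers on the array were well above background on all 6 arrays.

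Haemoglobin is a tetramer of alpha-type and beta-type globin chains around heme. In the mouse embryo a first wave of red cells from the yolk sac carries the embryonic globins, and later cells from the fetal liver carry the adult globins. The transcription factors encoded by Gata1 and Klf1 switch on globin and heme genes in red cell precursors, and the erythropoietin receptor, encoded by Epor, transmits the survival signal that these cells need. Red cells and their precursors are the known source of globin RNA, and limb sections hold them in their vessels. In such bulk samples fewer red cells and less RNA per red cell cannot be told apart.

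The stretch of 250 bases before the start of each gene is shown for 4 of the genes. Shown are an adult alpha and beta globin that moved together over the arrays, an embryonic globin that did not move with them, and a heme enzyme gene. The heme enzyme gene, Alas2, moved with the adult globins less closely (Pearson r over the arrays of 0.61 with Hba-a1 and 0.62 with Hbb-b1). The sequences are those of RefSeq for GRCm38.p6, written 5′ to 3′ on the gene's own strand, and 7 of the 8 genes had an entry. The array's Hbb-b1 probes carry an accession that RefSeq now gives to Hbb-bt, a beta globin of the same cluster, so the Hbb-bt stretch is shown. They lie at chr11:32283422-32283671 (Hba-a1, plus strand), chr7:103813924-103814173 (Hbb-bt, minus strand), chr11:32276350-32276599 (Hba-x, plus strand) and chrX:150547167-150547416 (Alas2, plus strand). Capitals mark matches on either strand to GATAA, the core of a GATA factor motif, CACCC, the core bound by Klf1 and related factors, CCAAT, and TATAAA, the letters of a TATA box.
Hba-a1: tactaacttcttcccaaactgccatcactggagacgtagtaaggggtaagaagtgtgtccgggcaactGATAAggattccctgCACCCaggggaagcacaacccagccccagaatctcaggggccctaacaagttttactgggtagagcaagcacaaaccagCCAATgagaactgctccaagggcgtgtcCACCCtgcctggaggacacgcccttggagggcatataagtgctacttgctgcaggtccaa
Hbb-bt: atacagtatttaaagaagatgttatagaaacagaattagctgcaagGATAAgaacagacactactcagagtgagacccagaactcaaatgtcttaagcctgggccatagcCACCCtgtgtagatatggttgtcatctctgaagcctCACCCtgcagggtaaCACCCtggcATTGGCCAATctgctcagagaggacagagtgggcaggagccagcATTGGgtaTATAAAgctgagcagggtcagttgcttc
Hba-x: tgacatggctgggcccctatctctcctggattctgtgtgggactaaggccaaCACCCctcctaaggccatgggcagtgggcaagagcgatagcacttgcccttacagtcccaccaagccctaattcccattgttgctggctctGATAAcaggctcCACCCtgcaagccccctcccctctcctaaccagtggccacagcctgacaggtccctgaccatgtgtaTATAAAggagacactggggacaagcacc
Alas2: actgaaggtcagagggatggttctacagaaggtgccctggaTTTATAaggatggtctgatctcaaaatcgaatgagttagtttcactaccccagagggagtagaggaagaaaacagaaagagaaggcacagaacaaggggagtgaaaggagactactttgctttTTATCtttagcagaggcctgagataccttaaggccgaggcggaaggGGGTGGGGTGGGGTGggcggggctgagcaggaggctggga
CACCC was found in 7 of the 7 stretches, against 52.0% of the 32851 promoter windows of the same length in the RefSeq table. GATAA was found in 6, all but that of Gata1, against 22.6% of all windows. CCAAT was found in 3 (Hba-a1, Hbb-bt and Klf1; 33.8% of all windows) and TATAAA in 3 (Hbb-bt, Hba-x and Alas2; 12.4% of all windows). Between the TATAAA and the start lay 22 bases in Hbb-bt and in Hba-x. In Alas2 it was 203 bases, with the match on the other strand, so that match is not called a TATA box here. Hbb-bt held 3 CCAAT and 3 CACCC matches, Hba-a1 held 1 and 2, and Alas2 held no CCAAT and 3 CACCC matches in a row on the other strand. In Hba-a1, 177 bases lay between the GATAA and the start, in Hbb-bt 199, in Hba-x 102 and in Alas2 81. A match of letters is a description and no measure of binding.

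The arrays differed in brightness, which touches every comparison below. The growth plate control array had a median processed signal of 103 units and 72.3% of its spots well above background, whereas the other 5 arrays had medians of 340 to 502 units and 77.3% to 88.3%. A level here is the log2 signal less the 75th percentile of its array, and is 0 at that percentile. The 3 controls and the interzone mutant lay on slide 1 and the other 2 mutants on slide 2, so genotype and slide cannot be told apart in growth plate and interdigital tissue. Tgfbr2, the targeted gene, had levels of 2.42, -2.40 and 2.503 at its brightest probe on the interzone, growth plate and interdigital control arrays, and of 2.24, 1.20 and 1.92 on the matching mutant arrays. Since the removed part of the gene is not named in the labels, this checks nothing about the deletion. The 12 growth plate cartilage markers on the array had their highest summed level on the growth plate control array (724 on a linear scale in which 1 is the 75th percentile) and a sum of 75.6 to 189 on the others, with 83.7 on the growth plate mutant array. The 10 interzone markers summed to 53.3 on the interzone control array and 12.9 to 23.8 on the others, with 20.1 on the interzone mutant array. Among the mutants, their sum was highest on the interdigital array (23.8), and that of the cartilage markers on the interzone array (90.5). The 9 interdigital markers did not single out the interdigital arrays (20.2 and 18.1, against 13.2 to 27.3 on the others), though 18.1 was the highest sum among the mutants. With 1 array per group no difference within a tissue has a replicate check or a test. The test these 6 arrays allow is of the mean difference over the 3 tissues, in which the tissues stand in for replicates, and it is given after the values of the genes.

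The adult globins were among the brightest probes on every array. Hba-a1, the adult alpha globin gene, gave processed signals of 252161, 268563 and 194421 units on the interzone, growth plate and interdigital control arrays, and of 212524, 151768 and 201726 units on the matching mutant arrays. Its place in the order of all probes lay between 2 (growth plate control) and 15 (growth plate mutant). Hbb-b1, an adult beta globin gene, gave 138051, 162367 and 106588 units on the controls and 161459, 100548 and 136853 units on the mutants. Adult alpha and beta globin RNA was thus present on all 6 arrays, the 2 labelled growth plate included. Near-identical copies of both genes exist in the mouse genome, and these probes cannot be assigned to a single copy.

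On the scaled levels, the growth plate control array stood highest for both adult globins and the growth plate mutant array lowest. Hba-a1 had levels of 7.29, 7.95 and 6.76 on the control arrays and 6.85, 6.23 and 6.53 on the mutant arrays. Hbb-b1 had levels of 6.43, 7.22 and 5.89 on the control arrays and 6.46, 5.64 and 5.97 on the mutant arrays. Control and mutant levels overlapped for both genes. The mutant was 3.27-fold lower for Hba-a1 and 2.99-fold lower for Hbb-b1 in growth plate, 1.36-fold lower and 1.02-fold higher in interzone, and 1.17-fold lower and 1.06-fold higher in interdigital tissue. All 6 probes of the pair were lower in mutant growth plate, by 2.99-fold to 4.29-fold, and none of them differed by 2-fold in the other tissues. Of these probes, the 2 of Hba-a1 share 30 bases and 1 pair of Hbb-b1 shares 29.

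The growth plate difference of the adult globins depended on how the arrays were brought to one scale. On the log2 scale it was -1.71 for Hba-a1 and -1.58 for Hbb-b1 as given above, -0.92 and -0.60 after quantile normalization, -0.82 and -0.69 without scaling, and -2.82 and -2.69 in the authors' deposited table, where each array is divided by its median. The median of all genes measured on both growth plate arrays moved too, from -0.48 to -0.59, 0.41 and -1.59 under the same choices. The direction was the same under each of these scalings, while the step past 2-fold was not.

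**Figure D1:**
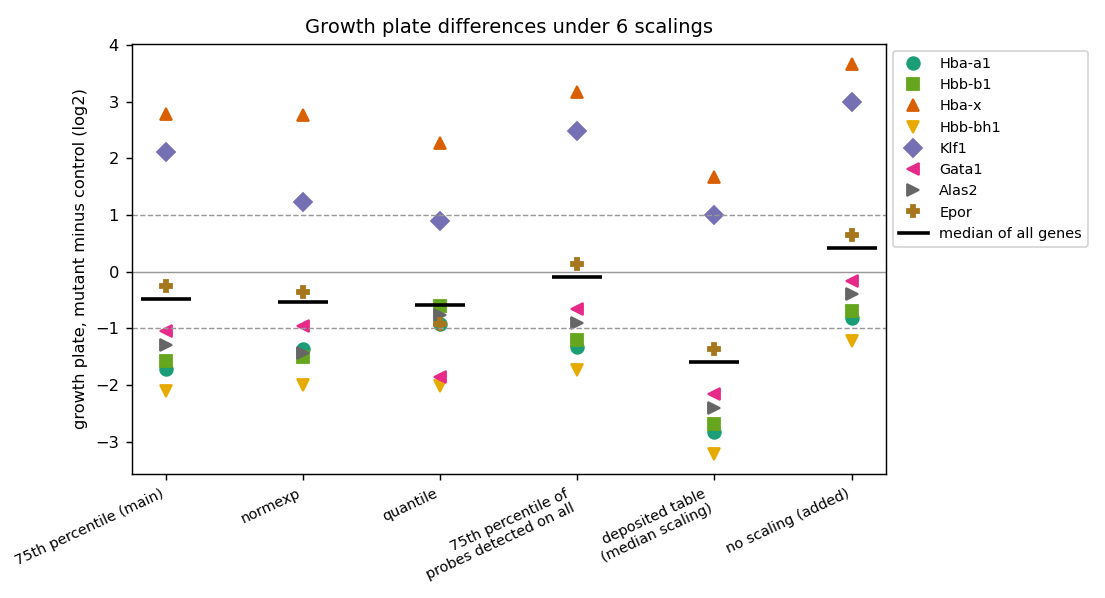
Mutant minus control difference in growth plate (log2, vertical axis) of the 8 genes under 6 ways of scaling the arrays (horizontal axis), with the median of all genes measured as a black bar and dashed lines at 2-fold. The adult globins lie past -1 under 4 scalings and between -0.92 and -0.60 under quantile normalization and no scaling, while Hba-x lies above 1 under each.

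The embryonic globins differed from each other, and Hba-x also from the adult globins. Hba-x, the zeta-type embryonic alpha globin gene next to Hba-a1 on chromosome 11, had levels of 0.82, -1.84 and -4.31 on the interzone, growth plate and interdigital control arrays and of -0.02, 0.95 and -0.58 on the mutant arrays. The interdigital control array was the lowest by far, at a signal of 90.5 units against 305 to 3890 units elsewhere. The mutant was 6.91-fold higher in growth plate and 13.3-fold higher in interdigital tissue, and 1.79-fold lower in interzone, so the order of the genotypes differed between tissues. Set against Hba-a1, a comparison in which any constant factor of an array cancels, Hba-x was 22.6-fold higher in mutant growth plate and 15.5-fold higher in mutant interdigital tissue. Normalizations that act on more than such a factor changed the sizes, to 9.13-fold and 26.5-fold with quantile normalization and to 17.5-fold and 10.1-fold with normexp background correction. Hba-x rests on 1 probe, at bases 32229678 to 32229737 of chromosome 11 in the array's annotation, for which no source used here names a build.

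Hbb-bh1, an embryonic beta-type globin gene, was lower in the mutant in each tissue. Its brightest probe had levels of 0.48, 0.69 and -1.08 on the control arrays and -1.13, -1.42 and -1.99 on the mutant arrays. The lowest control, interdigital, and the highest mutant, interzone, were close, but the groups did not overlap. The mutant was lower by 3.04-fold in interzone, by 4.31-fold in growth plate and by 1.88-fold in interdigital tissue. A second probe, which shares 40 bases with the first, was well above background on the 3 control arrays, at -2.11, -4.73 and -4.24, and on no mutant array. By that probe the mutant was at least 20.9-fold, 6.58-fold and 11.7-fold lower in the 3 tissues, where the control level is set against the dimmest probe that the mutant array still marked as well above background. Both probes therefore had the same direction, with sizes that were far apart. Set against Hbb-b1, Hbb-bh1 was lower by 3.11-fold in mutant interzone, by 1.44-fold in growth plate and by 1.98-fold in interdigital tissue. With quantile normalization the growth plate value was 2.65-fold, and with normexp the interzone value was 2.12-fold.

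**Figure D2:**
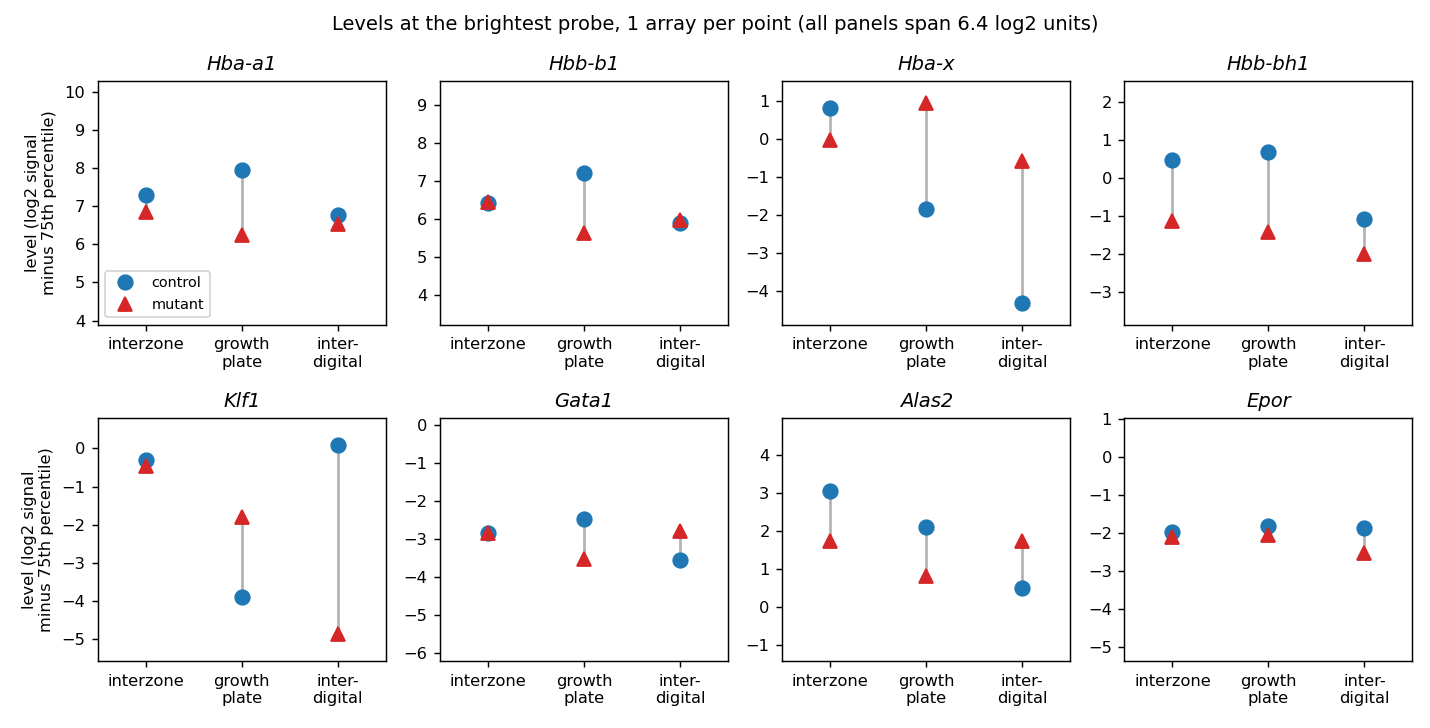
Level of each gene at its brightest probe (vertical axis, log2 signal minus the array's 75th percentile) in 3 tissues (horizontal axis), with 1 array per point and a grey line from control to mutant. The adult globins lie within 1.71 log2 units over the 6 arrays, whereas Hba-x spans 5.26 and Klf1 4.95.

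The other globin genes and the globin chaperone gene form a list of 9, of which 5 were on the array, 1 of them being the Hbb-b1 probe under its RefSeq name. Hbb-y, the epsilon-type embryonic beta globin gene, had levels of 3.16, 3.31 and 0.97 on the control arrays and 1.83, 0.99 and 1.24 on the mutant arrays. It was 2.52-fold and 5.00-fold lower in mutant interzone and growth plate and 1.21-fold higher in mutant interdigital tissue. Ahsp, which encodes the chaperone of free alpha globin, had levels of 3.62, 4.40 and 2.71 on the control arrays and 2.35, 0.52 and -0.06 on the mutant arrays. Every control array was above every mutant array, though not in the deposited table, and the mutant was 2.41-fold, 14.7-fold and 6.78-fold lower in interzone, growth plate and interdigital tissue. Relative to Hba-a1, the chain its protein binds, Ahsp was 1.77-fold, 4.50-fold and 5.78-fold lower in the mutants. The theta globin genes Hbq1a (-1.11, -2.84 and -4.43 on controls, -4.58, -5.31 and -5.48 on mutants) and Hbq1b (-1.30, -1.60 and -2.07 on controls, -2.18, -3.07 and -2.73 on mutants) were also higher on every control array than on any mutant array. That order was lost for both with normexp, with quantile normalization and in the deposited table, and for Hbq1b without scaling too. Across the scalings and background correction tried the interzone difference reached from -3.50 to -0.72 for Hbq1a and from -0.91 to 0.10 for Hbq1b, while Ahsp was at least 2-fold lower in each tissue under each of them. Past 2-fold, 3 of the 5 were lower and 0 higher in mutant interzone (median -1.27, against -0.09 for all genes measured, of which 22.6% were lower), and 2 were lower with normexp. In growth plate 5 were lower and 0 higher (-2.32, against -0.48 and 32.5% lower), and 3 were lower without scaling. In interdigital tissue 2 were lower and 0 higher (-0.66, against -0.20 and 18% lower), and 1 was lower with normexp, with quantile normalization, in the deposited table and without scaling.

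The regulators reached from widely spread to nearly level. Klf1, the erythroid Krüppel-like factor, had levels of -0.31, -3.91 and 0.08 on the interzone, growth plate and interdigital control arrays and -0.47, -1.80 and -4.87 on the mutant arrays. The growth plate control and interdigital mutant arrays were the low ones, with signals of 72.3 and 74.8 units, and both were still well above background. The mutant was 30.9-fold lower in interdigital tissue, 4.33-fold higher in growth plate, and lower by 1.12-fold in interzone. The interdigital difference was between -5.41 and -4.06 on the log2 scale under the alternatives tried, and that in growth plate between 0.89 (quantile normalization) and 3.003 (no scaling). The 1 probe of Klf1 lies at bases 83491092 to 83491151 of chromosome 8 in the same annotation.

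Gata1, the lead GATA factor of red cell precursors, was dim and varied little. Its levels were -2.84, -2.47 and -3.55 on the control arrays and -2.84, -3.51 and -2.78 on the mutant arrays. The range over the 6 arrays was 1.08 log2 units, and the groups overlapped. Its probe was printed in 10 spots, of which 8 to 10 were kept, and the SD over the spots of an array was 0.0566 to 0.177 log2 units, which is the error of reading an array and not of the tissue. The mutant was 2.06-fold lower in growth plate, 1.71-fold higher in interdigital tissue and equal to the control within 0.0017 log2 units in interzone. With normexp the interzone difference was 1.14 on the log2 scale, and the interdigital one was past 2-fold with quantile normalization (1.25) and without scaling (1.05). The growth plate value was under 2-fold with normexp background correction (-0.96 on the log2 scale), with the percentile of probes detected on all arrays (-0.66) and without scaling (-0.15). It was larger with quantile normalization (-1.86) and in the deposited table (-2.16).

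Epor had the narrowest range, 0.71 log2 units. Its levels were -1.96, -1.82 and -1.86 on the control arrays and -2.09, -2.06 and -2.52 on the mutant arrays, so each control was above each mutant by a small margin. The mutant was 1.096-fold, 1.19-fold and 1.58-fold lower in interzone, growth plate and interdigital tissue. In unscaled signal the groups overlapped (413, 310 and 494 units on controls, 432, 483 and 380 units on mutants), and the growth plate difference then pointed the other way (0.64 on the log2 scale). In the deposited table the growth plate difference was past 2-fold, at -1.36 on that scale.

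Alas2, the erythroid form of the first enzyme of heme synthesis, had levels of 3.04, 2.12 and 0.51 on the control arrays and 1.73, 0.83 and 1.75 on the mutant arrays. The interzone control array was highest and the interdigital control array lowest. The mutant was lower by 2.48-fold in interzone and by 2.44-fold in growth plate, and 2.36-fold higher in interdigital tissue. The interzone and interdigital values were past 2-fold under each scaling and background correction tried, whereas the growth plate value was -0.76 on the log2 scale after quantile normalization, -0.91 with the percentile of probes detected on all arrays, and -0.40 without scaling.

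**Figure D3:**
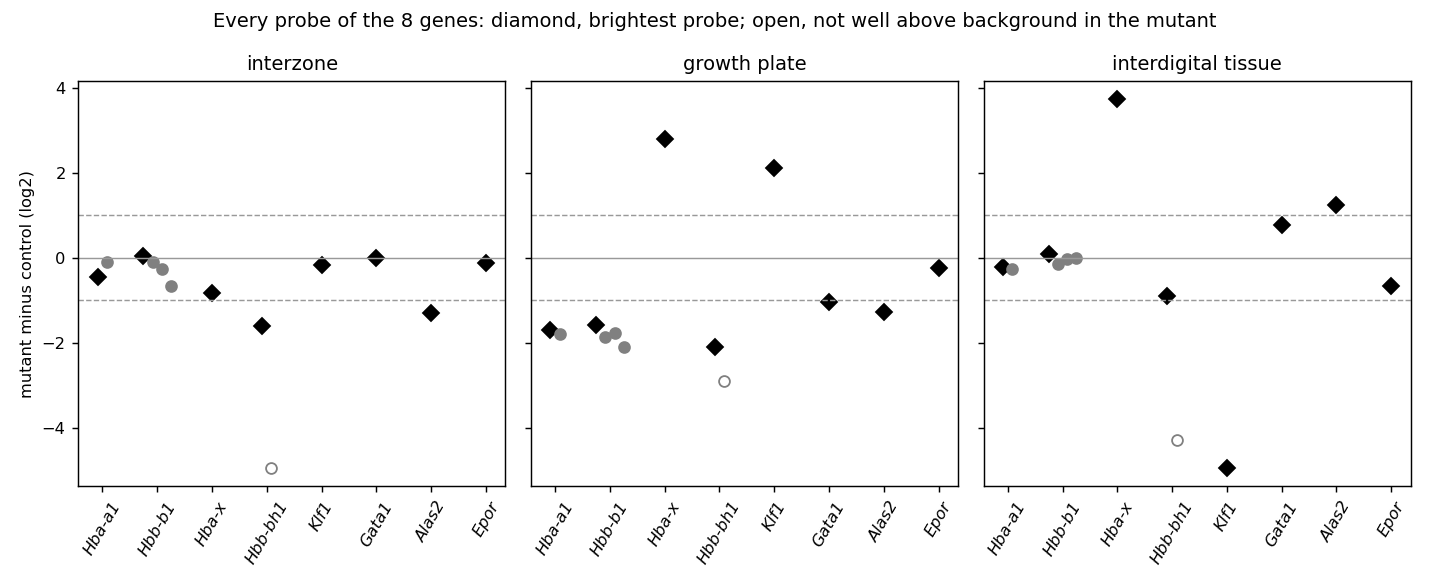
Mutant minus control difference (log2, vertical axis) of all 13 probes of the 8 genes (horizontal axis) in each tissue, with a diamond for the brightest probe of a gene, grey circles for its other probes, open circles where the mutant was not well above background, and dashed lines at 2-fold. The 6 adult globin probes lie together in each panel, while Hba-x and Klf1 lie apart from them in growth plate and interdigital tissue.

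The number of genes past 2-fold at the brightest probe is set beside the share of all gene names, each by its brightest probe, that were measured on both arrays. In mutant interzone 2 of the 8 genes were at least 2-fold lower (Hbb-bh1 and Alas2), where 22.6% of all gene names were, and 0 were higher, where 18.5% were. In mutant growth plate 5 were lower (both adult globins, Hbb-bh1, Gata1 and Alas2; 32.5% of all gene names) and 2 were higher (Hba-x and Klf1; 21.5%). In mutant interdigital tissue 1 was lower (Klf1; 18% of all gene names) and 2 were higher (Hba-x and Alas2; 10.5%). The growth plate count of 5 was 2 after quantile normalization and 1 without scaling. Hbb-bh1 and Epor were the 2 genes with all controls above all mutants, against 12.2% of the gene names measured on all 6 arrays, and 0 of the 8 had all mutants above all controls, against 4.31%. That count was 0 after quantile normalization and in the deposited table. Hbb-bh1 kept the order without scaling and with the percentile of detected probes, and Epor under no other scaling tried. Hba-a1 gained it with normexp and with the percentile of detected probes.

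A limma fit of genotype over the 6 arrays, with each tissue as a block and 2 residual degrees of freedom, was run on the 19234 gene names measured on all of them. It asks for a difference shared by the 3 tissues. None of the 8 genes was called at an adjusted p under 0.05, and neither was any other gene name (0%), while 1374 gene names, 7.14% of them, had an unadjusted p under that value. The mean difference of Hbb-bh1 was -1.54 on the log2 scale (SE 0.478; limma's moderated test, unadjusted p = 0.0259, adjusted p = 0.661), lower in the mutant in 3 of 3 tissues. It was the 1 gene of the 8 with an unadjusted p under 0.05. Hba-x had a mean difference of 1.89 (SE 1.01; adjusted p = 0.668 in the same limma fit), higher in 2 of 3 tissues, and Hba-a1 one of -0.79 (SE 0.518; adjusted p = 0.688), lower in 3 of 3. Klf1, the gene with the widest SE (1.43), had an adjusted p of 0.828 in it. In the fits on the other scalings 0 of the 8 were called as well, although the fit on the deposited table called 132 of all gene names. With slide as a further block the genotype term is the interzone difference alone, and 0 genes were called.

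Over the 6 arrays, 5 of the 8 genes were highest on the growth plate control array (Hba-a1, Hbb-b1, Hbb-bh1, Gata1 and Epor). With that array left out, the interzone control array was highest for 3, the interdigital control array for 2 and each mutant array for 1. The growth plate control array was the highest of the 6 for 35.6% of the gene names measured on all, and the highest of the 3 controls for 44.9%. Among the controls Klf1 alone was highest on interdigital tissue (26.4% of all gene names) and lowest on growth plate (35.6%). Among the mutants Gata1 and Alas2 were highest on interdigital tissue (27.4%), and 4 genes, those 2 and both adult globins, were lowest on growth plate (37.4%). Within controls, Hba-a1 was 1.57-fold and Hbb-b1 1.73-fold higher in growth plate than in interzone, and 2.28-fold and 2.51-fold higher than in interdigital tissue. Among the mutants the order of the adult globins was the reverse for growth plate, with interzone 1.53-fold (Hba-a1) and 1.76-fold (Hbb-b1) above growth plate. Hba-x was 34.9-fold higher in control interzone than in control interdigital tissue, and Klf1 15.9-fold higher in control interdigital tissue than in control growth plate.

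As a description over 6 arrays that share samples, slides and depth, Hba-a1 and Hbb-b1 levels had a Pearson r of 0.95, Hba-a1 and Hbb-bh1 0.90, and Hba-a1 and Hba-x -0.20. Klf1 had r of -0.13 with Hba-a1 and -0.53 with Gata1. Among 19233 other gene names measured on all arrays, the pattern most like that of Hba-a1 was that of Fbxo4 (r = 0.997), of Hbb-b1 Tmem37 (0.996), of Hba-x Tyro3 (0.972) and of Hbb-bh1 Mrpl17 (0.997). For Klf1 it was 4930563D23Rik (0.983), for Gata1 Cd84 (0.995), for Alas2 3930401K13Rik (0.980) and for Epor Tsen54 (0.987). With 6 points, r above 0.9 was reached by many gene names for some of the genes and by few for others. The number was 967 (5.03%) with Hba-a1, 682 (3.55%) with Hbb-b1 and 566 (2.94%) with Hbb-bh1. With the other genes it lay between 26 (0.14%, Hba-x) and 137 (0.71%, Epor).

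Further red cell genes were taken from 7 lists of 83 entries, of which 77 were on the array. Of these 77, 1 was not beyond the 8 genes: Hbb-bt, read by the brightest Hbb-b1 probe. In mutant interzone 16 of the 71 measured on both were higher by 2-fold or more and 19 lower (median -0.16), where 18.5% and 22.6% of all gene names were. In growth plate 11 of 63 were higher and 25 lower (-0.65; 21.5% and 32.5% of all), and in interdigital tissue 4 of 75 higher and 17 lower (-0.14; 10.5% and 18%). The growth plate split turned to 18 higher and 13 lower without scaling and to 7 and 45 in the deposited table, that of interdigital tissue to 11 and 11 without scaling, and that of interzone to 30 higher and 7 lower with normexp background correction. Under the same choices all gene names were 34.6% higher and 13.8% lower in growth plate, 12.5% and 65.4% there in the deposited table, 15.3% and 12.2% in interdigital tissue, and 35.3% and 11.1% in interzone. Of the 63 genes measured on all 6 arrays, 10 had every control above every mutant (12.2% of all gene names did) and 1 the reverse (4.31%). The 10 were Ahsp, Hbq1a, Hbq1b, Car2, which encodes carbonic anhydrase 2, the kinase gene Lyn, and 5 membrane and skeleton genes: Slc4a1 (the anion exchanger band 3), Sptb (beta spectrin), Ank1 (ankyrin), Add2 (beta adducin) and Cldn13. With normexp background correction 3 had every control above and 1 the reverse, with the percentile over detected probes 9 and 3, and without scaling 6 and 5.

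The longest list was that of the red cell membrane and its skeleton, with 5 of its 13 genes measured on all arrays among the 10, against 3 of 5 in the globin list. Of its 20 genes, 5 of 16 measured were lower (22.6% of all gene names) and 3 higher (18.5%) in mutant interzone (median -0.39), where 1 was lower and 8 higher with normexp (median 1.0024). In growth plate 8 of 13 were lower (32.5%) and 1 higher (21.5%; median -1.16), and 3 and 3 without scaling. In interdigital tissue 6 of 19 were lower (18%) and 1 higher (10.5%; median -0.76). Slc4a1 was 12.5-fold lower in mutant interzone, with levels of 2.51 and -1.14. In mutant growth plate Cldn13 was 8.07-fold lower, with a difference of -4.13 to -2.13 on the log2 scale over the scalings tried. In mutant interdigital tissue Aqp1, a water channel gene, was 13.3-fold, Sptb 7.37-fold and Add2 5.76-fold lower. The Rh family genes went the other way: Rhd was 8.83-fold and Rhag 7.35-fold higher in mutant interzone, and Rhag was 3.10-fold higher in mutant interdigital tissue. That last difference was between 0.46 and 2.45 on the log2 scale over the scalings and background correction tried, on either side of 2-fold. Rhag was dim on the interzone and interdigital control arrays, at a level of -6.55 on each, against -3.67 and -4.92 on the matching mutant arrays. On the growth plate control array it was not well above background.

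Of 12 heme genes, 2 were higher and 3 lower in mutant interzone (median 0.12), 2 higher and 2 lower of 11 in growth plate (-0.80), and 1 higher and 1 lower in interdigital tissue (-0.21), beside the shares of all gene names given for the lists together. The growth plate split was 2 higher and 8 lower in the deposited table (median -1.92) and 3 and 0 without scaling (0.08). Fech, which encodes the enzyme that inserts iron into heme, was 32.0-fold higher in mutant growth plate (-5.27 and -0.27), where the control level was the low one, and the difference was 3.35 to 5.89 on the log2 scale over the alternatives. Cpox, the gene of coproporphyrinogen oxidase, was 19.1-fold lower in mutant interzone, a difference that was as small as -0.04 under another background correction or scaling. Alad, the gene of the second enzyme of the pathway, was 2.08-fold higher in mutant interdigital tissue. Of the 4 iron uptake genes, 1 was lower in mutant interzone and 0 higher (median -0.33), 2 of 3 were lower and 1 higher in growth plate (-1.28), and 1 of 4 was higher and 0 lower in interdigital tissue (0.20). Slc11a2, an iron transporter gene, was the one lower in interzone and higher in the other tissues, in interdigital tissue by 2.37-fold.

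Of 15 transcription factor and cofactor genes, 7 of 14 were higher and 2 lower in mutant interzone (median 0.72), 5 of 13 higher and 2 lower in growth plate (-0.24), and 1 of 15 higher and 1 lower in interdigital tissue (-0.12). For all gene names the shares higher were 18.5%, 21.5% and 10.5% in the same order of tissues. The shares lower were 22.6%, 32.5% and 18%, and both apply to the counts of the other lists in this paragraph. The interzone count of higher genes was 9 with normexp, and the growth plate split was 2 higher and 8 lower in the deposited table. Nfe2, a factor of the red cell and platelet lineages, was 9.03-fold higher in mutant interzone, and Klf3 was 2.22-fold higher in mutant interdigital tissue. Foxo3, a factor also expressed in many other tissues, was 20.6-fold lower in mutant interzone, 20.9-fold higher in growth plate and 2.00-fold higher in interdigital tissue, and its interzone difference was as small as -0.32, and its interdigital one as small as 0.84, under another background correction or scaling. Of 10 erythropoietin signalling genes, 3 of 9 were higher and 2 lower in mutant interzone (0.58), 2 of 8 higher and 3 lower in growth plate (-0.25), and 0 of 9 higher and 4 lower in interdigital tissue (0.15). Stat5b, a transcription factor downstream of the receptor, was 73.4-fold higher in mutant interzone (-6.29 and -0.09; 4.38 to 6.45 on the log2 scale over the alternatives). In mutant growth plate the survival gene Bcl2l1 was 30.0-fold higher, Kitl, the gene of the Kit ligand, 7.48-fold higher, and the kinase gene Pim1 15.8-fold lower. Over the alternatives these were 3.79 to 5.79, 1.79 to 3.79 and -5.10 to -3.09 on the log2 scale. Of 11 late maturation genes on the array, 3 of 11 were lower and 1 higher in mutant interzone (-0.61), 3 of 10 lower and 0 higher in growth plate (-0.42), and 3 of 11 lower and 0 higher in interdigital tissue (-0.05). Car2 was 34.5-fold lower in mutant interzone and 170-fold lower in mutant growth plate (1.70 and -5.71). Over the alternatives its difference was -5.13 to -2.03 in interzone and -8.53 to -5.82 in growth plate.

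**Figure D4:**
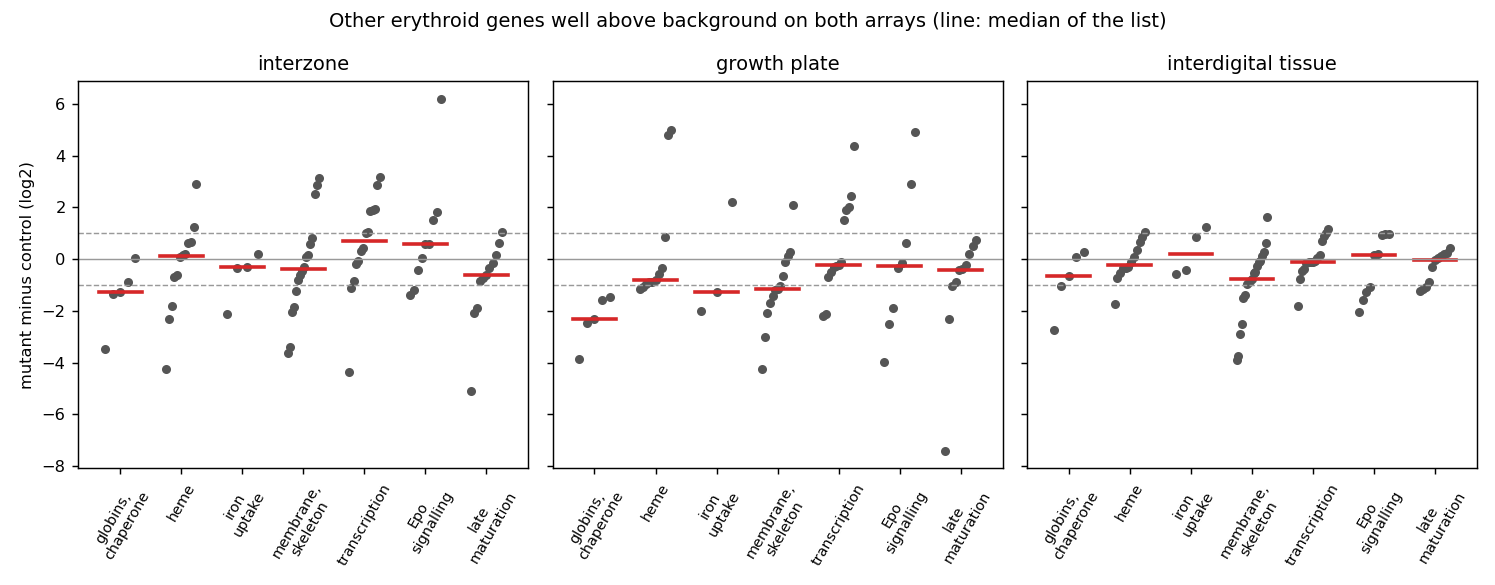
Mutant minus control difference (log2, vertical axis) of the listed genes measured on both arrays of a tissue, grouped by role (horizontal axis), with 1 point per gene, a red line at the median of each list and dashed lines at 2-fold. The median of the globin list lies at -1.27, -2.32 and -0.66 in interzone, growth plate and interdigital tissue, and those of the membrane list at -0.39, -1.16 and -0.76.

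Markers of vessels and of other blood cells differed in the arrays on which they were high. The summed level of 12 endothelial markers was 8.11, 2.10 and 22.8 on the interzone, growth plate and interdigital control arrays and 11.1, 11.6 and 12.3 on the mutant arrays, so it was lowest where the adult globins were highest. On that growth plate control array 8 of the 12 were well above background, against 12 of 12 on the others, and the 4 that were not included the endothelial receptor genes Kdr, Tek and Tie1. The 8 mast cell markers had summed levels of 2.74, 45.7 and 6.97 on the control arrays and 12.1, 10.2 and 22.9 on the mutant arrays, highest on the growth plate control array like the adult globins. The 11 platelet and megakaryocyte markers were also highest there (133, against 62.2 to 75.4 on the others), and so were the 11 housekeeping genes (224, against 132 to 155) and the cartilage markers. The 12 macrophage markers lay between 5.13 and 22.0 and the 8 leukocyte markers between 0.657 and 13.3. Of the mast cell markers Ms4a2 was well above background on no array, and Ppbp, a platelet chemokine gene, was so on the growth plate and interdigital mutant arrays alone. The summed level of 12 epidermal markers was 280, 272 and 220 on the mutant arrays and 30.5, 177 and 11.3 on the controls, so it was higher on each mutant array than on any control array, beside every difference given here. The part of these cell types in the globin differences was not tested.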

How the data were processed

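The authors deposited one scanner file per array, with the intensity of each spot, read with Agilent Feature Extraction 9.5.1.1 per the file headers. Per the labels' protocols, captured RNA was made into cDNA, amplified by PCR with a commercial method (SuperAmp) whose steps are not disclosed, and 250 ng of product was labelled with Cy3. Such amplification of few cells can spread levels of rare transcripts, and its part was not measured here. The deposited value table is a linear ratio, the processed signal of a spot divided by its array's median, as found by setting it against the scanner values. Because the description field of 5 samples speaks of irradiated human blood, against their other labels, groups were taken from the titles.

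The processed intensity was used, which is background-corrected per the file headers. Control and outlier spots were left out, spots of a probe were averaged as log2, and each array's 75th percentile was subtracted. A gene was represented by its brightest probe, chosen by its mean over the arrays. A difference counted at 2-fold if both arrays were marked well above background. A probe so marked on 1 array alone gives a bound. The fold changes compare 1 array with 1 array, and whatever the labels say of separate embryos, no spread between samples of a group could be measured. A limma fit of genotype with the tissue as a block, added after the data were seen, used the spread of the genotype difference over the tissues. Quantile normalization and normexp (offset 50) used limma 3.58.1 in R 4.3.3, and the rest Python 3.11.15 with pandas 2.3.3. The counting of differences and the limma fit were tested on simulated data. The changes put in for the fit were far larger than the mean differences of the genes described. That test therefore does not measure how well the fit finds differences of their size. Names of probes came from the array and, for 22951 probes, from accessions in a RefSeq table of GRCm38.p6.

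The genes and the 7 lists of red cell genes and 10 lists of markers were chosen with earlier results of these data known. Named in the text are the 8 genes at all probes, all genes of the globin list, for each tissue the 5 listed red cell genes furthest from 0 each way, and the gene with the most similar pattern. Some results that this rule would have given are not reported here. Scaling, background correction, probe choice, the filter on dim probes and the fold were varied as the closing section gives. The number of arrays limits the precision.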

Additional observations from a re-analysis of the deposited data

Results flagged for a closer look

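Klf1 and Alas2 stood out because the mutant minus control difference was past 2-fold in opposite directions in different tissues. For Klf1 it was 2.12 in growth plate and -4.95 in interdigital tissue on the log2 scale. With quantile normalization the growth plate difference of Klf1 was 0.89, under 2-fold, so the trait was lost there. For Alas2 it was -1.31 in interzone and -1.29 in growth plate, and 1.24 in interdigital tissue. The growth plate value of Alas2 fell under 2-fold in some alternatives, while its interzone and interdigital values stayed past 2-fold under each scaling and background correction tried. With 1 array per group the differences between the tissues were not tested, and each gene was read by 1 probe.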

How the results depend on the processing

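No pairing of replicates within a tissue was possible, because each group had 1 array and the labels carry no replicate numbers. The arrays of a tissue were paired in the limma fit with tissues as blocks, which called 0 of the 8 genes under each of 6 scalings and with slide as a further block. With 1 array per group none was left out as a replicate. Of 144 recomputed differences of single genes, 128 kept their side of 2-fold, 11 dropped under it, 5 went past it, and 0 changed direction at that size. Differences under 2-fold both times were counted as kept whatever their sign, and some of them changed sign. That of Epor in growth plate was -0.25 on the log2 scale and 0.64 without scaling. Of 78 recomputed counts, 16 moved by over 1.5 times. Genes lower in mutant growth plate numbered 5, and were 2 with quantile normalization, 3 with the percentile over probes detected on all arrays, 1 at 4-fold and 1 without scaling, and the higher ones went from 2 to 1 with quantile normalization. Genes lower in mutant interzone went from 2 to 0 at 4-fold, and the higher ones from 0 to 1 with normexp background correction. In mutant interdigital tissue the lower ones went from 1 to 2 with the mean over probes, and the higher ones from 2 to 1 at 4-fold. Genes highest on interdigital tissue among the controls went from 1 to 2, and those lowest on growth plate from 1 to 2, both with the percentile over detected probes and without scaling. Genes highest on interdigital tissue among the mutants went from 2 to 0 with normexp, 1 with quantile normalization and 0 in the deposited table. The fewer calls at 4-fold follow from the threshold, and otherwise the cause was not tested. Over all gene names, the share of calls that were higher in the mutant was 45.0%, 39.8% and 36.8% in interzone, growth plate and interdigital tissue, and 76.1%, 38.3% and 40.8% with normexp, 51.9%, 30.8% and 48.9% with quantile normalization, 44.0%, 53.8% and 35.3% with the percentile over detected probes, 55.0%, 16.0% and 48.3% in the deposited table, and 53.4%, 71.5% and 55.7% without scaling. Leaving out scaling, leaving out the growth plate control array and the fit with tissues as blocks were chosen after seeing the data. Signal over background limits the second Hbb-bh1 probe to bounds.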
